A study of Mus musculus with 4 samples.

Results

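The genes described here are 46 genes of the cell cycle and of DNA replication, measured in B cells of the spleen with and without the histone methyltransferase NSD1. They were chosen by symbol, as genes of replication licensing, of S phase, of mitosis and of the cyclins, and all 46 were found among the 55401 gene identifiers that were counted. RNA of sorted B220+ cells was sequenced in 4 libraries, 2 labelled NSD1B WT and 2 labelled NSD1B KO, and the question was which of these genes were higher or lower without NSD1. NSD1B WT mice were Mb1-Cre+ NSD1+/+ and NSD1B KO mice were Mb1-Cre+ NSD1fl/fl, so both groups carried the Cre, which the Mb1 (Cd79a) promoter drives in the B lineage from its early stages. The floxed allele has its loxP sites around exons 6 to 8 of Nsd1. All animals were on the C57BL/6J background, the controls were littermates, and the study used animals of both sexes at 7 to 9 weeks of age. The labels give no sex, treatment or immunization for a library, and leave unsaid whether replicate libraries came from separate animals. The p-values therefore measure only the spread between these libraries, which may be technical.

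In the cell cycle, licensing factors first load the MCM helicase onto origins, and cyclin D with CDK4 or CDK6 and cyclin E with CDK2 then phosphorylate the retinoblastoma protein, which frees E2F factors to drive the genes of S phase. Polymerases, the PCNA clamp and its loader, single-strand binding proteins and a supply of deoxynucleotides carry replication, and cyclin B with CDK1, the Aurora kinases and the spindle carry mitosis. Most B cells of the spleen are resting, and dividing B cells are found above all in germinal centers. The sorted cells are a bulk sample, in which fewer cells of a type and less RNA per cell cannot be told apart.

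The libraries held 6769118 to 7566834 counts on genes, and 12383 to 13084 genes had a count. Nsd1 itself had 497 and 480 counts in NSD1B WT and 284 and 280 in NSD1B KO, or 67.6 ± 2.75 against 40.5 ± 1.52 counts per 1000000 scaled counts (CPM, mean ± SD, n = 2 and 2). The NSD1B KO libraries were both below the NSD1B WT libraries (log2 fold change -0.74, SE 0.11, adjusted p = 8.08e-08 by edgeR's quasi-likelihood test), in the direction of the labels. These counts are summed over all exons, so the deleted ones were not measured on their own. All 10 B cell markers were counted in every library, with a summed level of 13500 and 13230 CPM in NSD1B WT and 12690 and 11660 CPM in NSD1B KO. Among them 7 fell and 1 rose by the threshold given below, with a median log2 fold change of -0.33. Of all genes tested, 41.1% were lower and 37.1% higher by the same threshold. Pax5, which keeps B cells to their lineage, was at 42.9 against 4.39 CPM. The markers of other cells are given after the results.

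Of the 46 genes, 37 had enough counts to be tested, and 10 were higher and 20 were lower in NSD1B KO than in NSD1B WT, by a threshold of 0.05 on the adjusted p and of 1.2 on the fold change. The other 7 did not pass. Over all 11657 genes tested, 37.1% were higher and 41.1% were lower by the same rule. These shares are the background for every count by role, list or markers below. In 34 of the 37 genes the libraries of the genotypes did not overlap, a share close to the 88.1% of all genes tested. The median log2 fold change was -0.64 over the 37 genes, and -0.10 over all genes tested. A gene that passed the filter on low counts only through the genotype in which it was high had to differ, so this median does not stand for all 46. Over the 25 genes with counts in both genotypes the median was -0.14, with 8 higher and 10 lower, beside a median of -0.02 over 9086 genes of the same kind. Its sign turned after removal of the dependence of fold changes on the length and GC content of exons (the exon length and GC trend, 0.017), so no direction is read from it.

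**Figure D1:**
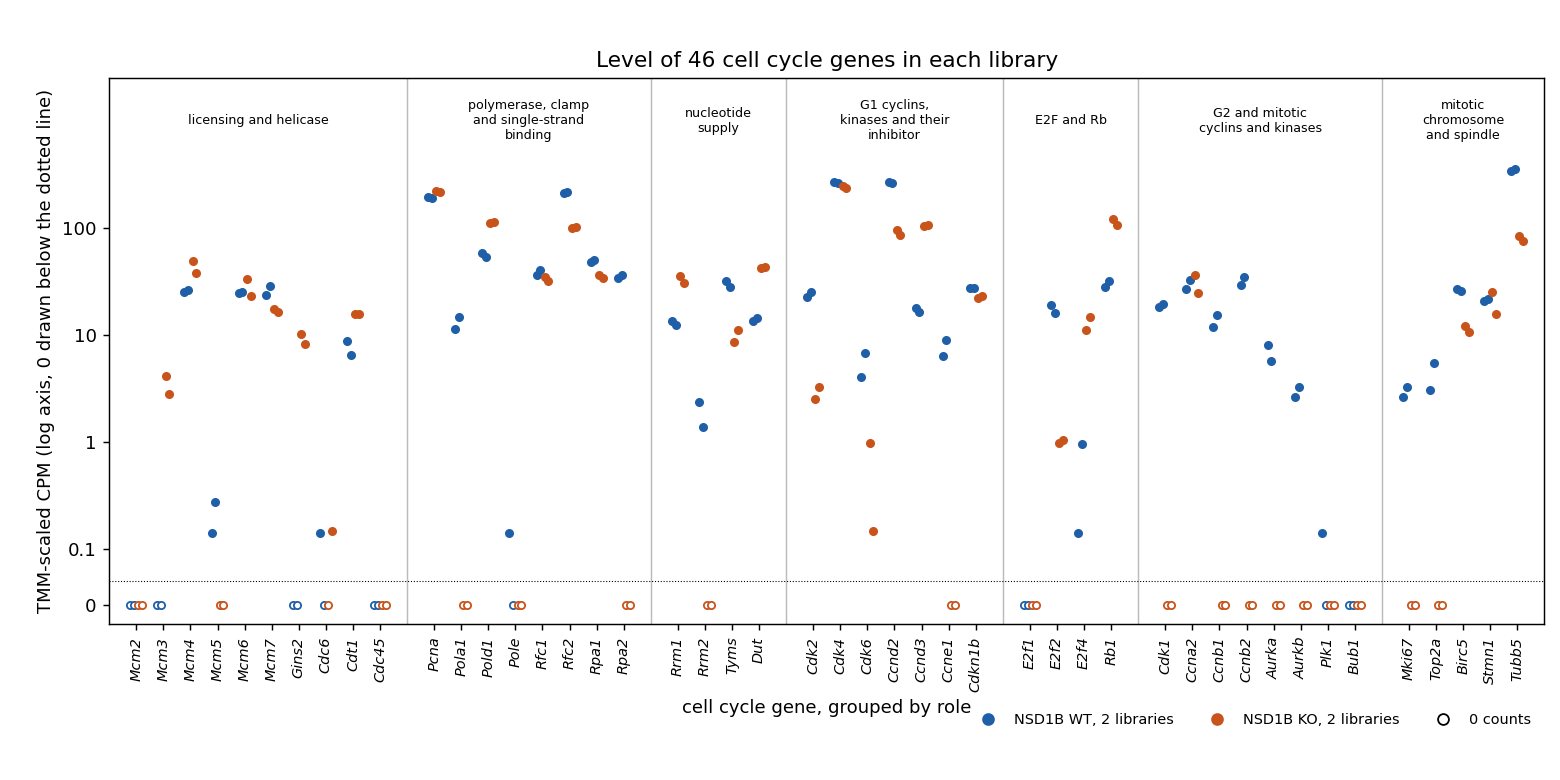
Level of each of the 46 genes in each library, in TMM-scaled CPM on a log axis, with the genes ordered by role along the horizontal axis. Each point is 1 library, blue for NSD1B WT and orange for NSD1B KO, and open points below the dotted line are libraries with 0 counts, which among the 13 genes of mitosis fall mostly on NSD1B KO.

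Among the 22 genes of DNA replication, 16 were tested, of which 7 were higher, 6 were lower and 3 did not pass, with a median log2 fold change of 0.18. Among the 13 genes of mitosis, 11 were tested, of which 0 were higher, 9 were lower and 2 did not pass, and 7 of the 9 had 0 counts in both NSD1B KO libraries and passed the filter through NSD1B WT alone. Of the 4 genes of mitosis counted in both genotypes, 2 were lower and 0 higher. Over all genes tested, 41.1% were lower and 11.3% were lower with 0 counts in both NSD1B KO libraries. The difference between these groups of genes was not tested. Where a genotype had 0 counts, the change is given as a limit, computed against 3 counts over its 2 libraries, which is 0.2075 CPM in NSD1B WT and 0.2155 CPM in NSD1B KO and covers counting error only.

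**Figure D2:**
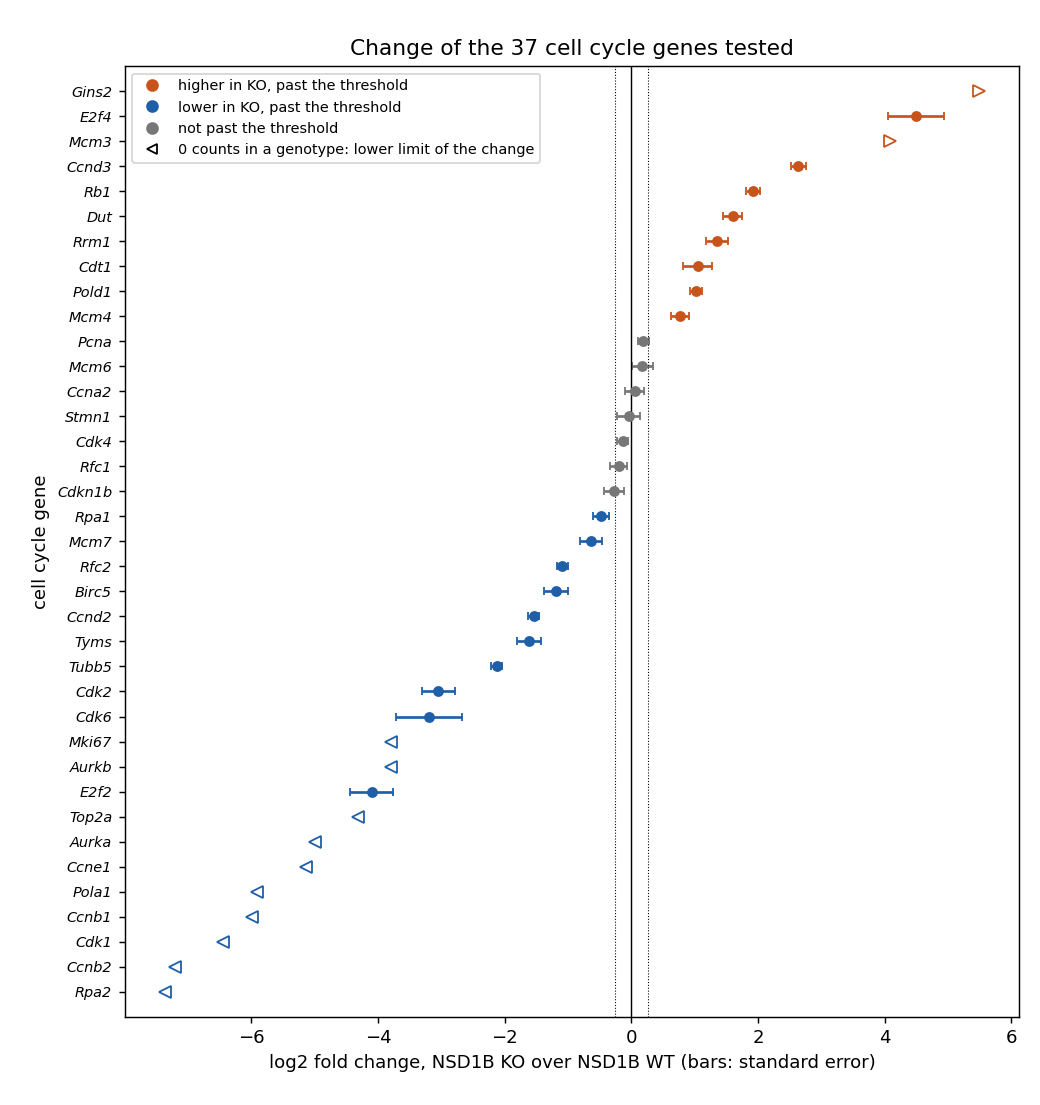
Log2 fold change of NSD1B KO over NSD1B WT for the 37 genes tested, ordered by size, with the standard error as a bar. Open triangles are genes with 0 counts in a genotype, drawn at the lower limit of their change, dotted lines mark the fold change of 1.2, and 10 genes lie to the right and 20 to the left past the threshold.

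Licensing and helicase genes had 6 of 10 members tested, of which 4 were higher, 1 was lower and 1 did not pass. Cdt1, which brings the helicase to origins, had 62 and 47 counts in NSD1B WT and 112 and 105 in NSD1B KO. Both NSD1B KO libraries were above both NSD1B WT libraries, at 15.6 ± 0.0306 against 7.55 ± 1.59 CPM (log2 fold change 1.05, SE 0.24, adjusted p = 8.5e-05), and the value was 1.58 with the exon length and GC trend removed. Mcm4, a subunit of the helicase ring, had 178 and 190 counts in NSD1B WT and 350 and 256 in NSD1B KO, a rise of 0.77 on the log2 scale (SE 0.14, adjusted p = 3.78e-06). Mcm7, another subunit, had 170 and 211 counts against 126 and 109 and was lower (log2 fold change -0.64, SE 0.17, adjusted p = 0.000735). Its call was lost after removal of the same trend (log2 fold change -0.33, adjusted p = 0.0703). Mcm6 had 176 and 183 counts in NSD1B WT and 237 and 154 in NSD1B KO, so the NSD1B KO libraries lay on both sides of the NSD1B WT libraries and the gene did not pass (log2 fold change 0.17, adjusted p = 0.326). It passed as higher without NSD1B KO replicate 2 (0.41, adjusted p = 0.0224) and was at -0.12 without NSD1B KO replicate 1.

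Mcm3 and Gins2 were counted in NSD1B KO alone. Mcm3, a further subunit of the ring, had 0 and 0 counts in NSD1B WT and 30 and 19 in NSD1B KO, at least 16.96-fold higher (adjusted p = 2.87e-09). Gins2, a subunit of the GINS complex that activates the helicase, had 0 and 0 counts against 74 and 55, at least 44.65-fold higher (adjusted p = 1.31e-13). The genes higher in NSD1B KO with 0 counts in both NSD1B WT libraries were 2 of the 37 members tested, and 7.63% of all genes tested. The exons of Gins2 share 67.3% of their length with Gse1 on the other strand, and since the strand setting of the counting is not given, their reads cannot be told apart. The remaining members had too few counts to be tested. Mcm2 and Cdc45, a ring subunit and a helicase cofactor, had 0 counts in all 4 libraries, Mcm5 had 1 and 2 counts in NSD1B WT and 0 in NSD1B KO, and the loading factor Cdc6 had 1 count in NSD1B WT replicate 1 and in NSD1B KO replicate 2. The ring is built from 1 copy each of Mcm2 to Mcm7, so members of a single complex were counted over 100 times and not at all in the same library. The cause was not tested.

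The promoters of 36 of the 46 genes were found in RefSeq (GRCm38.p6), as windows from 250 bases before to 50 bases after a start of transcription. They were searched on both strands for E2F motifs (TTTGGCGC, TTTCCCGC, TTTCGCGC or TTTGCCGC), for the CCAAT box bound by NF-Y, and for the CHR element (TTTGAA), at which the DREAM complex and MYB-MuvB bind in late cell cycle genes. An E2F motif was found in 11 of the 36 genes, against 2.6% of the 27025 genes with a window, and a CCAAT box in 26 of the 36, against 41.1%. The pieces below are the 250 bases before the start of Mcm3 (chr1:20820313-20820562, minus strand), which was at 0 in NSD1B WT, and of Mcm6 (chr1:128359706-128359955, minus strand), which did not pass. Capitals mark the motifs on either strand. The Mcm6 piece shows a pair of overlapping E2F motifs, a further E2F motif and CCAAT boxes read on the other strand, and the E2F motif of the Mcm3 window lies after its start and outside the piece. A match describes the sequence and not a bound site.
Mcm3: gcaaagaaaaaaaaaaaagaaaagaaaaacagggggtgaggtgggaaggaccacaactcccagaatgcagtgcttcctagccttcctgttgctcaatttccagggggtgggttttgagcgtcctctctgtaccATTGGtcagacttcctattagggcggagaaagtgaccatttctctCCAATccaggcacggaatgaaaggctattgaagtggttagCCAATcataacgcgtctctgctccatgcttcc
Mcm6: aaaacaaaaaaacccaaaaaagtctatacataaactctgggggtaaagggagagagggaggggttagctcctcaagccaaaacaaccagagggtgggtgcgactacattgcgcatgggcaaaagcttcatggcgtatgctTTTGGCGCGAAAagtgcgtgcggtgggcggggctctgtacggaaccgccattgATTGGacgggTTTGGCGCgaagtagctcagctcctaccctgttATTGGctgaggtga

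Genes of the polymerases, the clamp and single-strand binding had 7 of 8 members tested, of which 1 was higher, 4 were lower and 2 did not pass. Pold1, the catalytic subunit of polymerase delta, had 412 and 388 counts in NSD1B WT and 799 and 761 in NSD1B KO. It was higher at 112 ± 1.47 against 55.4 ± 3.24 CPM (log2 fold change 1.02, SE 0.10, adjusted p = 5.92e-13), and the value was 1.64 with the exon length and GC trend removed. Pola1, the catalytic subunit of polymerase alpha, which starts each new strand, had 81 and 107 counts in NSD1B WT and 0 and 0 in NSD1B KO, at least 60.36-fold lower (adjusted p = 1.61e-15). Pole, the catalytic subunit of polymerase epsilon, had 1 count in NSD1B WT replicate 1 and 0 in the other 3 libraries and was not tested. Of the 3 catalytic subunits, 1 was thus higher, 1 was lower and 1 was hardly counted.

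Rfc2, a subunit of the clamp loader, had 1524 and 1560 counts in NSD1B WT and 712 and 679 in NSD1B KO, 2.13-fold lower (log2 fold change -1.09, SE 0.09, adjusted p = 6.34e-16). Its larger partner Rfc1 had 259 and 298 counts against 251 and 216 and did not pass (log2 fold change -0.20, adjusted p = 0.168), but passed as lower with scaling by library size only (-0.28, adjusted p = 0.0425). Exons of Rfc2 share 15.1% of their length with Lat2 on the other strand. Rpa2, the middle subunit of replication protein A, which covers single-stranded DNA, had 243 and 267 counts in NSD1B WT and 0 and 0 in NSD1B KO, at least 163.7-fold lower (adjusted p = 3.71e-23). Rpa1, the large subunit of the same complex, was lower by far less, with 345 and 367 counts against 262 and 230 (log2 fold change -0.48, SE 0.12, adjusted p = 0.000515). Pcna, the sliding clamp and a common marker of proliferating cells, had 1375 and 1384 counts in NSD1B WT and 1590 and 1440 in NSD1B KO. Its libraries did not overlap in CPM (191 ± 2.19 against 217.5 ± 4.89), but its fold change of 1.14 was under the threshold (adjusted p = 0.0325).

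Genes of nucleotide supply had 3 of 4 members tested, of which 2 were higher and 1 was lower. Dut, the dUTPase that keeps uracil out of DNA, had 97 and 105 counts in NSD1B WT and 301 and 288 in NSD1B KO, 3.03-fold higher (log2 fold change 1.60, SE 0.16, adjusted p = 6.28e-13). Rrm1, the large subunit of ribonucleotide reductase, had 97 and 90 counts against 256 and 206 and was higher as well (log2 fold change 1.36, SE 0.17, adjusted p = 8.29e-10). Its partner Rrm2, the small subunit, whose level follows S phase, had 17 and 10 counts in NSD1B WT and 0 and 0 in NSD1B KO, at least 8.668-fold lower by counting alone, and had too few counts for the test. Tyms, the thymidylate synthase, had 228 and 204 counts against 62 and 74 and was 3.05-fold lower (log2 fold change -1.61, SE 0.19, adjusted p = 1.12e-10). Enzymes of the same supply line therefore moved in opposite directions.

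All 7 genes of the G1 cyclins, their kinases and their inhibitor were tested, of which 1 was higher, 4 were lower and 2 did not pass. Ccnd2 (ENSMUSG00000000184.12, chromosome 6, minus strand, 127125162 to 127152193 in GRCm38, GENCODE M21) had 1909 and 1904 counts in NSD1B WT and 684 and 577 in NSD1B KO, 2.92-fold lower (log2 fold change -1.54, SE 0.09, adjusted p = 4.59e-21). Ccnd3 (ENSMUSG00000034165.16, chromosome 17, plus strand, 47505051 to 47599691) had 126 and 119 counts in NSD1B WT and 749 and 718 in NSD1B KO, 6.21-fold higher (log2 fold change 2.64, SE 0.12, adjusted p = 1.52e-24). Per kb of exon, the ratio of Ccnd2 to Ccnd3 was 14.1 and 14.9 in the NSD1B WT libraries and 0.852 and 0.7495 in the NSD1B KO libraries, so the order of their levels was turned. The third D cyclin, Ccnd1, is not one of the 46 and was looked up after these values were seen, and had 3 and 1 counts in NSD1B WT and 98 and 86 in NSD1B KO (log2 fold change 5.49, adjusted p = 1e-14).

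Of the kinases, Cdk4, the partner of the D cyclins, had 1924 and 1927 counts in NSD1B WT and 1780 and 1590 in NSD1B KO and did not pass (log2 fold change -0.14, adjusted p = 0.107), and its direction turned with the exon length and GC trend removed (0.17, adjusted p = 0.0679). Cdk4 shares 19.7% of its exon length with Tspan31 on the other strand. Cdk6, the other partner of the D cyclins, had 29 and 49 counts against 7 and 1, 9.15-fold lower (log2 fold change -3.19, SE 0.52, adjusted p = 3.68e-07). This size rests on few counts, and the value was -5.02 without NSD1B KO replicate 1 and -2.45 without NSD1B KO replicate 2. Cdk2, the partner of cyclins E and A, had 161 and 184 counts in NSD1B WT and 18 and 22 in NSD1B KO, 8.25-fold lower (log2 fold change -3.05, SE 0.26, adjusted p = 5.64e-15). Ccne1, which encodes a cyclin E, had 45 and 65 counts against 0 and 0, at least 35.31-fold lower (adjusted p = 2.41e-12), so Cdk2 and Ccne1 were both lower. Ccna2, a cyclin A and so another partner of Cdk2, did not pass (log2 fold change 0.05). Cdkn1b, which encodes the inhibitor p27, had 196 and 200 counts against 160 and 155 and did not pass (log2 fold change -0.28, adjusted p = 0.102). It passed as lower with scaling by library size alone (-0.35, adjusted p = 0.0308) and with the trend removed (-0.43, adjusted p = 0.00842).

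Of the 4 genes of E2F and Rb, 3 were tested and all 3 changed. Rb1, the retinoblastoma protein that holds E2F factors in check, had 201 and 231 counts in NSD1B WT and 860 and 717 in NSD1B KO, 3.78-fold higher (log2 fold change 1.92, SE 0.11, adjusted p = 9.41e-21). E2f4, which acts mainly as a repressor in resting cells, had 1 and 7 counts against 80 and 98 and was higher (log2 fold change 4.49, SE 0.44, adjusted p = 5.59e-13), with a value of 6.37 without NSD1B WT replicate 2 and 3.75 without NSD1B WT replicate 1. E2f2, an activator, had 137 and 116 counts in NSD1B WT and 7 and 7 in NSD1B KO, 17.1-fold lower (log2 fold change -4.10, SE 0.34, adjusted p = 4.72e-15). The activator E2f1 had 0 counts in every library and was not tested. In these libraries the counted activator was lower, and the counted repressor and Rb1 were higher. Rb1 shares 8.1% of its exon length with Rcbtb2 and 6.8% with Lpar6 on the other strand.

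The cyclins and kinases of G2 and mitosis had 6 of 8 members tested, of which 5 were lower and 1 did not pass, and all 5 were at 0 in both NSD1B KO libraries. Genes lower with 0 counts in both NSD1B KO libraries were 11.3% of all genes tested. Cdk1 (ENSMUSG00000019942.13, chromosome 10, minus strand, 69335146 to 69352938), the kinase that drives entry into mitosis, had 130 and 141 counts in NSD1B WT and 0 and 0 in NSD1B KO, at least 87.0-fold lower (adjusted p = 3.4e-18). Its cyclins moved with it. Ccnb1 had 84 and 113 counts against 0 and 0, at least 63.25-fold lower (adjusted p = 8.81e-16). Ccnb2 had 209 and 251 counts against 0 and 0, at least 147.7-fold lower (adjusted p = 3.5e-22). The Aurora kinases, which act at the spindle poles and at the centromeres, were lower too. Aurka had 57 and 42 counts against 0 and 0, at least 31.78-fold lower (adjusted p = 8.21e-12), and Aurkb had 19 and 24 counts against 0 and 0, at least 13.8-fold lower (adjusted p = 1.15e-08).

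Ccna2, the cyclin of S phase and G2, stood apart from these. It had 192 and 236 counts in NSD1B WT and 261 and 167 in NSD1B KO, so the libraries of the genotypes overlapped and the gene did not pass (log2 fold change 0.05, SE 0.16, adjusted p = 0.776). Its direction turned with scaling by library size alone (-0.03), without NSD1B WT replicate 1 (-0.05) and without NSD1B KO replicate 1 (-0.25). Its exons share 12.5% of their length with Exosc9 on the other strand. Plk1, a kinase of mitotic entry, had 1 count in NSD1B WT replicate 1 and 0 elsewhere, and Bub1, a kinase of the spindle checkpoint, had 0 counts in all 4 libraries, so neither was tested.

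The genes of mitotic chromosomes and the spindle were all tested, and of these 5 genes 4 were lower and 1 did not pass. Mki67, which encodes the Ki-67 protein of dividing cells, had 19 and 24 counts in NSD1B WT and 0 and 0 in NSD1B KO, at least 13.8-fold lower (adjusted p = 1.15e-08). Top2a, the topoisomerase that untangles chromosomes before they part, had 22 and 40 counts against 0 and 0, at least 19.9-fold lower (adjusted p = 1.18e-09). Both were low in NSD1B WT as well, at 2.97 ± 0.441 and 4.28 ± 1.69 CPM. Birc5, which encodes survivin of the chromosomal passenger complex, had 191 and 186 counts in NSD1B WT and 88 and 71 in NSD1B KO, 2.28-fold lower (log2 fold change -1.19, SE 0.19, adjusted p = 1.29e-07). Birc5 thus kept counts in NSD1B KO, while Aurkb of the same complex had none. Tubb5, a beta tubulin, had 2437 and 2609 counts against 605 and 511, 4.36-fold lower (log2 fold change -2.12, SE 0.09, adjusted p = 3.51e-26), and has close paralogs between which reads may be split. Stmn1, which takes microtubules apart, had 147 and 159 counts against 181 and 106 and did not pass (log2 fold change -0.04, adjusted p = 0.832), and its direction turned without NSD1B WT replicate 2 (0.01), without NSD1B KO replicate 2 (0.25) and with the exon length and GC trend removed (0.16).

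Windows of promoters were found for 10 of the 13 genes of mitosis. The CHR element and a CCAAT box, both known from late cell cycle genes, were found together in 6 of the 10, and in 9 of the 36 genes in all. The share was 8.0% of the 27025 genes with a window. The search asked only for both motifs in a window, in any order and at any distance. The CHR element, with or without a CCAAT box, was found in 9 of the 36 genes and in 20.2% of the 27025. The pieces below are the 250 bases before the start of 3 genes that were at 0 in both NSD1B KO libraries, Ccnb2 (chr9:70421555-70421804, minus strand), Mki67 (chr7:135716380-135716629, minus strand) and Top2a (chr11:99024190-99024439, minus strand), and hold both motifs, in capitals. The windows of Cdk1, Aurka and Plk1 held both motifs as well, and of these Cdk1 and Aurka were also at 0 in both NSD1B KO libraries, while Plk1 had too few counts to test. Ccnb1, Ccne1, Pola1 and Rpa2 were at 0 in both NSD1B KO libraries too, with no CHR element in their windows. Outside the genes of mitosis, windows of Mcm2, Cdc45 and E2f2 held both motifs. A link between motifs and counts was not tested. In the Ccnb2 piece the CHR element lies farther from the start than the CCAAT boxes. No binding was measured in these cells.
Ccnb2: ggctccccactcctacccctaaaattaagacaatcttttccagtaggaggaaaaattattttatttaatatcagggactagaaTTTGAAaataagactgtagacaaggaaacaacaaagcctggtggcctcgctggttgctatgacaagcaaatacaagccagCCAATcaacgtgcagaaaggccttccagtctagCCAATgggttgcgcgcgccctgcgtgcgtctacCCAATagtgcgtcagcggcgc
Mki67: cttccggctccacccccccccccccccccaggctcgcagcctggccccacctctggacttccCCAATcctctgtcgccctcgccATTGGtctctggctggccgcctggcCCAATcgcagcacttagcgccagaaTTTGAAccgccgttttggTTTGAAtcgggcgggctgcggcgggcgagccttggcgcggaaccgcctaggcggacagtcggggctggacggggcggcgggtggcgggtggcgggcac
Top2a: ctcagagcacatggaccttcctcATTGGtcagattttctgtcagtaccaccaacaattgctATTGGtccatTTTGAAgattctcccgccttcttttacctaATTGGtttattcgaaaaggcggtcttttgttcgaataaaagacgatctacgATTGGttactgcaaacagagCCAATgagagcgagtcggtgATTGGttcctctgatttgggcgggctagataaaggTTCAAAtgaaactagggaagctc

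The genes at 0 in NSD1B KO were compared with all genes of the same level in NSD1B WT, since a low gene is more often at 0. Between 1 and 5 CPM in NSD1B WT, 3 of 3 members tested were at 0 in both NSD1B KO libraries (Aurkb, Top2a and Mki67), and 25.8% of all genes. Between 5 and 20 CPM it was 5 of 11 members (Ccne1, Pola1, Cdk1, Aurka and Ccnb1) and 18.9% of all genes, and between 20 and 50 CPM 2 of 14 members (Rpa2 and Ccnb2) and 6.6% of all genes. Among genes of 50 CPM or more, 0 of 6 members were at 0 in NSD1B KO. Of all genes between 50 and 100 CPM in NSD1B WT 1.5% were, and of all genes at 100 CPM or more 0.1%. In the other direction, 18.9% of all genes between 1 and 5 CPM in NSD1B KO were at 0 in both NSD1B WT libraries, with Mcm3 as 1 of 3 members, and 14.4% between 5 and 20 CPM, with Gins2 as 1 of 6 members. Many genes were thus counted in a single genotype in these libraries, members or not, and the cause was not tested.

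**Figure D3:**
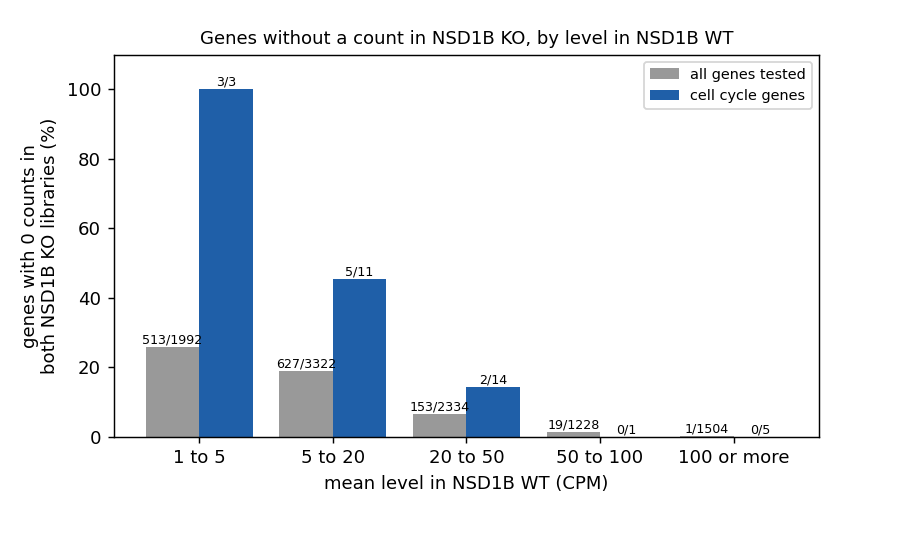
Share of genes with 0 counts in both NSD1B KO libraries (vertical axis, %) by their mean level in NSD1B WT (horizontal axis, CPM), for all genes tested (grey) and for the cell cycle genes tested (blue). The numbers above the bars are genes at 0 over genes in the bin, and the blue bars stand over few genes, from 3 of 3 at 1 to 5 CPM to 2 of 14 at 20 to 50 CPM.

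Replicates of a genotype were close. For the 25 members counted in both genotypes the median absolute log2 ratio was 0.115 between the NSD1B WT libraries and 0.147 between the NSD1B KO libraries, beside a median absolute log2 fold change of 1.09 between the genotypes. Over 9049 genes with a count in every library these values were 0.142, 0.171 and 0.779. Members that differed most between the NSD1B KO libraries, apart from the few counts of Cdk6, were Stmn1 (log2 ratio of replicate 1 to replicate 2 of 0.68), Ccna2 (0.55) and Mcm6 (0.53), all higher in replicate 1. These are also the 3 members whose genotypes overlapped.

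In CPM per kb of exon, Tubb5 had the highest level of the members in NSD1B WT, at 102.5 and 107.3 in its 2 libraries, and 25.3 and 22.8 in NSD1B KO. Cdk4 (82.9 and 81.1) and Pcna (80.2 and 78.9) came next in NSD1B WT. In NSD1B KO, Pcna was at 92.1 and 89.2 and Cdk4 at 76.1 and 72.75 CPM per kb, but neither gene passed the test. With the exon length and GC trend removed their log2 fold changes were 0.14 and 0.17, so no change in their order is read from these levels. Rfc2 had 33.8 and 33.9 CPM per kb in NSD1B WT and 15.7 and 16.0 in NSD1B KO, where Pold1 rose above it from 11.9 and 10.9 to 22.85 and 23.3. The ratio of Mcm4 to Mcm6 per kb was 1.32 and 1.35 in NSD1B WT and 1.92 and 2.16 in NSD1B KO, and that of Cdkn1b to Rb1 was 1.29 and 1.14 against 0.246 and 0.286.

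The rest of the pathway was read from 8 lists with 201 genes, none of them among the 46. Of these, 158 were tested, 54 were higher, 69 were lower and 35 did not pass, with a median log2 fold change of -0.12 beside -0.10 over all genes tested. Both genotypes had counts for 131 of them, of which 49 were higher and 47 were lower. Of the 158, 20 were lower with 0 counts in both NSD1B KO libraries, beside 11.3% of all genes tested. The counts of each list below stand beside 37.1% higher and 41.1% lower among all genes tested.

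**Figure D4:**
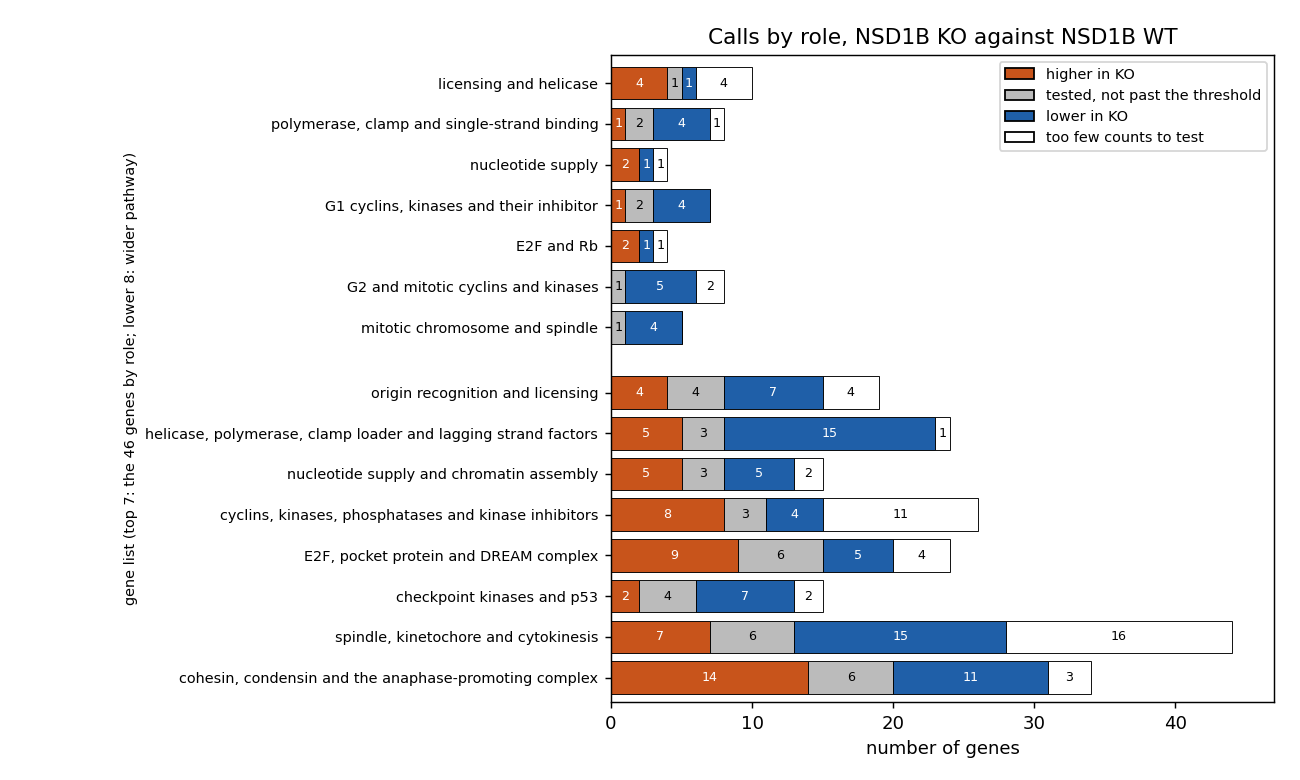
Number of genes (horizontal axis) higher in NSD1B KO, lower, tested but not past the threshold, and with too few counts to test, for the 7 roles of the 46 genes (top) and the 8 lists of the wider pathway (bottom). No gene of the 2 mitotic roles was higher, while in the list of spindle, kinetochore and cytokinesis genes 7 were higher and 15 lower.

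The list of helicase, polymerase, clamp loader and lagging strand factors had 23 genes tested, of which 15 were lower and 5 higher, with a median log2 fold change of -0.79. Of all genes tested, 41.1% were lower and 37.1% higher, with a median of -0.10. Over the 18 genes of the list counted in both genotypes, 11 were lower and 4 higher, with a median of -0.76. Pold2, an accessory subunit of polymerase delta and partner of Pold1, had 166 and 135 counts in NSD1B WT and 0 and 0 in NSD1B KO, and the nuclease Dna2 had 134 and 128 counts against 0 and 0. Gins3, a partner of Gins2, had 100 and 129 counts against 0 and 0, and Atad5, which unloads the clamp, had 69 and 72 against 0 and 0. The reverse was seen for Pole2, a subunit of polymerase epsilon, with 0 and 0 counts in NSD1B WT and 267 and 200 in NSD1B KO, and for the primase subunit Prim2, with 2 and 2 against 128 and 107 (log2 fold change 5.84, adjusted p = 9.89e-17). Partners in a complex thus lay at opposite ends of the counts, with the limit given above that reads of Gins2 and Gse1 cannot be told apart. Among 15 genes of origin recognition and licensing tested, 4 were higher and 7 lower. Clspn, the adaptor of the replication checkpoint, had 134 and 131 counts against 0 and 0, and Wdhd1, which ties polymerase alpha to the helicase, had 49 and 57 against 0 and 0. Dbf4, the activator of the Cdc7 kinase, had 0 and 0 counts against 46 and 43. Of the origin recognition complex, Orc5 fell (log2 fold change -1.49) and Orc6 (1.45) and Orc2 (2.92) rose, and Orc2 shares 29.8% of its exon length with Nif3l1 on the other strand.

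Of 13 genes of nucleotide supply and chromatin assembly tested, 5 were higher and 5 lower. Both large subunits of the chromatin assembly factor were lower, Chaf1a with 183 and 185 counts against 4 and 3 (log2 fold change -5.61, adjusted p = 1.5e-19) and Chaf1b with 35 and 46 against 0 and 0. Exons of Chaf1a share 52.5% of their length with Ubxn6 on the other strand. The thymidine kinase Tk1 had 71 and 78 counts against 0 and 0, and the histone chaperone Nasp fell by 1.86 on the log2 scale. Samhd1, which breaks down deoxynucleotides, rose from 102 to 325 CPM (log2 fold change 1.68). Of 15 cyclins, kinases, phosphatases and kinase inhibitors tested, 8 were higher and 4 lower, with a median of 0.48. The CDK4 and CDK6 inhibitor Cdkn2c rose from 56 and 41 counts to 233 and 209 (log2 fold change 2.24, adjusted p = 3.82e-14), while its relative Cdkn2d fell (-0.78). Cyclin G1 (Ccng1) rose (0.95) and cyclin G2 (Ccng2), known from cells at rest, fell (-1.13).

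In the list of E2F, pocket protein and DREAM complex genes 20 were tested, of which 9 were higher and 5 lower. Rbl1, the pocket protein p107, rose from 32 and 29 counts to 310 and 230 (log2 fold change 3.19, adjusted p = 8.61e-19), and the repressor E2f6 from 25 and 26 to 155 and 117 (2.46). Lin54, which reads the CHR element in the DREAM complex, had 145 and 111 counts in NSD1B WT and 0 and 0 in NSD1B KO, and the Myc antagonist Mxd1 had 140 and 139 against 0 and 0. Myc itself, named after its values were seen, had 2027 and 1856 counts against 555 and 455 (log2 fold change -1.89, adjusted p = 1.44e-23). Foxm1, a driver of mitotic genes and also named after its values were seen, had 1 count in NSD1B KO replicate 2 and 0 elsewhere. Of 13 checkpoint and p53 genes tested, 7 were lower and 2 higher, with a median of -1.29. Over the 11 of these counted in both genotypes, 5 were lower and 2 higher, with a median of -0.26, and 41.1% of all genes tested were lower. The kinase Chek1 had 76 and 88 counts against 0 and 0, the kinase Atr fell from 95 and 121 to 17 and 14 (-2.74), Trp53 fell from 251 and 287 to 86 and 71 (-1.72), and Gadd45b had 36 and 35 against 0 and 0. Rad9a, of the checkpoint clamp, rose (2.44).

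Of 28 genes of the spindle, kinetochore and cytokinesis tested, 15 were lower and 7 higher, 7 of the lower genes were at 0 in NSD1B KO, and 16 more had too few counts to test. Cdca8, the borealin of the complex that holds Aurkb and Birc5, had 227 and 239 counts in NSD1B WT and 0 and 0 in NSD1B KO. Ckap2l had 121 and 126 counts, the cytokinesis motor Kif23 had 75 and 90, Sgo2a, which guards cohesion at centromeres, had 27 and 45 and the kinetochore gene Nuf2 had 24 and 36, all against 0 and 0. Rises were seen for Ndc80, the partner of Nuf2 (log2 fold change 1.47), for securin, Pttg1 (0.84), and for the spindle midzone gene Prc1, with 0 and 0 counts in NSD1B WT and 20 and 32 in NSD1B KO. The list thus held genes in both directions. Of 31 genes of cohesin, condensin and the anaphase-promoting complex tested, 14 were higher and 11 lower. The condensin subunit Ncapg had 188 and 167 counts against 0 and 0, Ncapg2 of the second condensin rose (3.49), Wapl, which releases cohesin, rose (1.71) and Anapc7 fell (-4.27).

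Markers of other cells moved with genotype as well. Of 9 germinal center markers, 4 were tested, with a summed level of 36.5 and 40.6 CPM in NSD1B WT and 38.2 and 32.1 CPM in NSD1B KO, and Gcsam, S1pr2, Nuggc and Mef2b were at 0 in every library. Fas had 43 and 59 against 0 and 0, while Bcl6, the master regulator of the germinal center, rose (log2 fold change 1.61) and Rgs13 had 0 and 0 counts against 163 and 124. Of the 4 tested, 2 were higher and 2 were lower, and both lower ones were at 0 in NSD1B KO. Of 9 erythroid markers 6 were tested and all 6 were higher, with a summed level of 40.3 and 36.8 CPM in NSD1B WT and 1948 and 1695 CPM in NSD1B KO, with Klf1 and Car1 at 0 in every library. The genes that rose here were mainly globin genes, such as Hba-a1 with 113 and 121 counts against 7289 and 5328.

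Of 11 myeloid markers 5 were higher and 3 lower among 9 tested, with a summed level of 4822 and 4914 CPM against 6326 and 5966, most of it Lyz2 at 4492 against 5717 CPM, and with Mpo and Elane at 0. Of 9 T cell markers 2 were higher and 2 lower among 5 tested, with 72.35 and 75.2 CPM against 79.8 and 76.3, and with Cd4 and Cd8a at 0. Of 8 plasma cell markers 2 were higher and 2 lower among 5 tested, with 315 and 301 CPM against 259 and 268, and with Sdc1, Tnfrsf17 and Derl3 at 0. Of 6 markers of NK cells and plasmacytoid dendritic cells, 2 were tested, with 1 higher and 1 lower, at 4.06 and 3.56 CPM against 12.1 and 13.2, and with Gzma, Siglech and Ncr1 at 0. The part of these cells in the changes of the cell cycle genes was not tested.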

How the data were processed

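The counts deposited by the authors are whole numbers for each gene in each library, with no normalization. Per their methods, the reads (paired ends) were mapped to mm10 with Bowtie2, and FPKM from Cufflinks, also described there, were left aside. How reads were assigned to genes, with which strand setting and which annotation, is not given in the sources used here. Reads on no gene made up 44.3% to 44.6% and reads that were not unique 11.2% to 13.2% of the counted reads, and both were left out.

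Libraries were grouped by their genotype labels. Of 55401 identifiers, 55141 (99.5%) matched GENCODE M21, which gave positions and exon lengths. Counts were scaled by TMM (factors 1.03, 1.03, 0.952 and 0.995 for NSD1B WT replicates 1 and 2 and NSD1B KO replicates 1 and 2) in edgeR 4.0.16 (R 4.3.3). Genes were kept by filterByExpr (minimum count 10, minimum total 15), and all 11657 were compared by edgeR's quasi-likelihood test of NSD1B KO against NSD1B WT with Benjamini-Hochberg adjustment. The common dispersion was 0.0054. The limits of 0.05 on p and of 1.2 on the fold change follow the methods. These do not call that p adjusted, and the use of the adjusted p was a choice made here. Permuting 4 libraries cannot give a p under 0.05 for a gene, so no exact permutation test was run. The procedure was tested on simulated data.

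The 46 genes, the 8 pathway lists, the markers and the rule for named genes were chosen with earlier results of these data known. By that rule, counts are given for members at 0 in a genotype, the 12 largest changes, the 6 highest levels per kb, Nsd1, and, per pathway list, the 2 largest rises and the 2 largest falls among called genes (mean log2 CPM 3 or more), and genes at 0 in a genotype with 50 counts or more in the other. Counts of the remaining members are given as well. Ccnd1, Myc and Foxm1 were added after their values were seen. Some genes that the rule or the marker lists name are not reported here. As alternatives, results were recomputed with DESeq2 1.42.0 size factors, library size alone, upper quartile scaling, limma-voom (limma 3.58.1), the DESeq2 Wald test, filters of 1 count in any library and of 1 CPM in all 4 libraries, each library left out in turn, a replicate block, a loess correction for exon length and GC content (span 0.5, values known for 99.91% of genes tested), the correction with the block, 395 immunoglobulin genes left out, and a stricter threshold. Promoter windows came from RefSeq (GRCm38.p6). Python 3.11.15 and matplotlib 3.10.9 were used for summaries and plots.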

Additional observations from a re-analysis of the deposited data

How the results depend on the processing

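Over all alternatives 7 to 11 members were higher and 8 to 22 were lower in NSD1B KO. The filters that drop genes at 0 removed calls because fewer genes were tested. With 1 CPM in all 4 libraries, 8 members were lower, 2855 genes were higher and 2991 lower, and the median log2 fold change of the members tested was -0.13 (22 members). With only genes of 1 count or more in each library, an alternative chosen after the zeros had been seen, 10 members and 3117 genes were lower and the median was -0.12 (25 members). The median was -0.43 with the exon length and GC trend removed, both without and with the replicate block, and ran from -0.75 to -0.48 (without NSD1B WT replicate 2) with a library left out. Over the 25 members counted in both genotypes the median was 0.017 with the trend removed and 0.008 with the trend removed and the block, against -0.14, and ran from -0.25 to -0.09 with a library left out.

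The centre of all genes moved from -0.10 to -0.18 with library size alone and to 0.02 with the trend removed. Directions turned for 4 members that had not passed. Ccna2 was at -0.032 with library size alone, and between -0.25 and 0.29 with a library left out. Stmn1 was between -0.43 and 0.25 with a library left out, at 0.16 with the trend removed and at 0.13 with the trend removed and the block. Cdk4 was at 0.17 with the trend removed, without and with the block, and with the block its adjusted p was 0.0475, with a fold change under the threshold. Mcm6 was between -0.12 and 0.41 with a library left out. The cause of these turns was not tested.

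The replicate numbers pair nothing in the labels, and the deviations of same-numbered libraries correlated at 0.0617 across 7686 genes. With the replicate block, 10 members were higher and 20 lower, as were 4254 and 4706 genes, and the median was -0.64. The block changed no call of a member on its own. With 2 libraries a genotype at this depth, a gene at 0 in a genotype can only be bounded at 3 counts.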
